A study of Mus musculus with 50 samples.

Results

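Biliary cells, the epithelial cells of bile ducts, were picked out of a spatial transcript map of aged mouse liver. Bile duct cells line the tubes that carry bile out of the liver, and they sit in portal tracts beside portal vein branches, arteries and portal fibroblasts. They are known for the transcription factor Sox9, the keratins Krt7 and Krt19, the adhesion proteins Epcam and Cdh1, and Spp1, which encodes the secreted phosphoprotein osteopontin. Hepatocytes and bile duct cells arise from one progenitor, and hepatocytes can switch on duct genes in chronic injury, which is why duct cells were of interest in a study of hepatocyte identity.

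A cell counted as biliary when at least 4 of its transcripts, and at least 4% of its gene counts, came from Spp1, Sox9, Krt19, Krt7, Epcam, Anxa4 and Cdh1 together. It also had to hold at least 20 gene counts and at most 1 count of C1qa, C1qb and C1qc, genes of liver macrophages. This rule found 382 cells among 49917 cells with at least 20 gene counts, out of 52132 segmented cells. The cells were chosen by these 7 genes, so the levels of the 7 genes and every contrast of gene expression between biliary and other cells are given as description and without a test.

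Livers were sectioned at 5 µm and imaged by CosMx, an assay that decodes single transcripts in place with probes for 1000 gene targets. HIRA KO mice were C57BL/6 animals with Hira fl/fl alleles, injected with AAV8-TBG-Cre when 6 months old. Controls were wild-type C57BL/6 mice given the same virus at the same age, so Cre was present in both groups. All mice were aged for 12 more months, to 18 months, with 3 mice per group. The TBG promoter restricts Cre to hepatocytes, Hira was not among the targets, and no lineage label was recorded, so the origin of a biliary cell could not be told from these data. The labels gave a genotype for each of 50 fields of view and no mouse, and the 6 tissue areas formed by neighbouring fields of view, 3 control and 3 HIRA KO, were taken as replicates. P-values therefore measure the spread between tissue areas on 1 slide.

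Each tissue area held between 741485 and 1569254 gene counts, with 6.14 to 8.6 counts per 1000 square pixels of cell area in control areas and 10.3 to 11.2 in HIRA KO areas. All 382 biliary cells together gave 43525 gene counts and 113 counts of the 10 negative probes, which match no transcript. Summed by area, they gave 6979, 2025 and 9225 gene counts in control and 9317, 11374 and 4605 in HIRA KO. A total of 781 targets had more counts in biliary cells than the highest negative probe, at 18 counts. Control area 2, with 18 biliary cells, carried the least information.

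Biliary cells were rare in both genotypes. They made up 0.758%, 0.264% and 1.22% of cells in the 3 control areas and 0.776%, 0.936% and 0.559% in the 3 HIRA KO areas, from 62, 18, 86, 79, 95 and 42 cells. Exact 95% binomial intervals, which cover counting error only, ran from 0.156% to 0.416% for the poorest area, control area 2, and from 0.976% to 1.5% for the richest, control area 3. The lowest and the highest share both lay in control areas, and the HIRA KO areas lay between them. The mean was 0.747% ± 0.478 (SD, n = 3) in control areas, and that of the HIRA KO areas was 0.757% ± 0.189. The difference of 0.0102 percentage points had a p of 0.9 by exact permutation (two-sided). With 3 areas against 3 no p under 0.1 can be reached. Per square megapixel of segmented cell area there were 0.436, 0.144 and 0.719 biliary cells in control and 0.627, 0.655 and 0.339 in HIRA KO, and the groups overlapped on this scale too. Thinning every cell to 50 gene counts, which evens out depth, left 18, 7 and 29 biliary cells in control and 27, 30 and 14 in HIRA KO. Of cells with at least 50 gene counts these were 0.28%, 0.12% and 0.53% in control and 0.32%, 0.35% and 0.21% in HIRA KO.

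**Figure D1:**
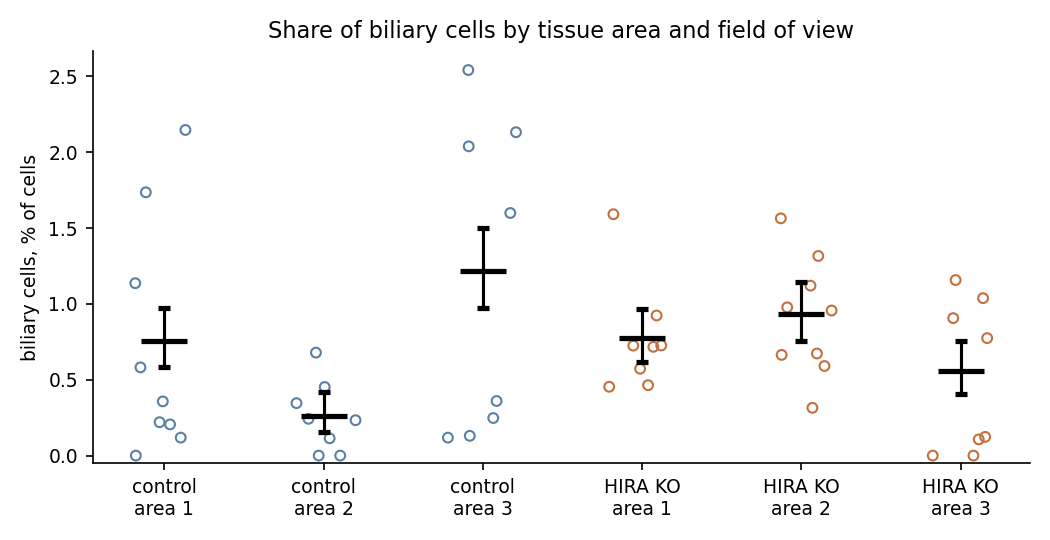
The vertical axis gives biliary cells as a percentage of cells with at least 20 gene counts. Open circles are fields of view, and black bars are tissue areas with exact 95% binomial intervals. Control areas span 0.264% to 1.22% and enclose the 3 HIRA KO areas.

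Fields of view differed more than the genotypes did. In control area 1, 22 of the 62 biliary cells lay in 1 field of view and 1 of 9 fields held none. In control area 3, 24 of 86 lay in 1 field, and in control area 2 and HIRA KO area 3 only 6 of 8 fields held any. HIRA KO area 2 was the most even, with biliary cells in all 9 fields and at most 19 in any of them.

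The rule genes showed what kind of cell was selected. Spp1 was counted in 90.6% of biliary cells, and in 7.32% of the remaining cells with at least 20 gene counts, called other cells here. Sox9, which drives bile duct formation, was counted in 47.6% against 8.7%, and Anxa4, an annexin of secretory epithelia, in 66.2% against 16.9%. E-cadherin, from Cdh1, followed with 45.3% against 11.7%, and the duct keratin Krt19 with 28% against 7.27%. Krt7 and Epcam were sparse, in 18.1% and 19.6% of biliary cells against 5.27% and 4.28% of other cells. In control area 2, Krt7 was counted in 5.56% of biliary cells, 1 cell, against 7.08% of other cells. At least 2 different rule genes were found in 96.1% of biliary cells, and at least 3 in 72.8%. Spp1 and Sox9 occurred together in 167 cells. There were 177 cells, 46.3%, with no count of Krt19, Krt7 or Epcam, so for nearly every second cell the label rests on Spp1, Sox9, Anxa4 and Cdh1. These values describe the selection.

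The genes lie apart in the genome. In GENCODE vM21 on GRCm38, Spp1 lies on chromosome 5 at 104435118 to 104441050, Sox9 on chromosome 11 at 112782224 to 112787760 and Krt19 on chromosome 11 at 100140810 to 100148665. Krt7 lies on chromosome 15 at 101411043 to 101430313, Epcam on chromosome 17 at 87635979 to 87651129, Anxa4 on chromosome 6 at 86736840 to 86793584 and Cdh1 on chromosome 8 at 106603351 to 106670246. All 7 are protein-coding, and the deposited tables name targets by symbol without giving probe positions.

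Most transcripts of the rule genes lay in cells that were not called biliary. Biliary cells held 17% of all 6483 decoded Spp1 transcripts, and between 2.64% (Krt7) and 4.93% (Sox9) of the transcripts of the other 6 genes. Of Spp1, 5.4% lay outside any cell outline. Among tissue areas the share of Spp1 transcripts in biliary cells ran from 7.46% in control area 2 to 28.3% in control area 3. Within biliary cells, 58.8% of Spp1 transcripts and 58.8% of all gene transcripts were placed over the nucleus. Ttr, which encodes the plasma protein transthyretin made by hepatocytes, was placed over the nucleus in 36.5% of its 524 transcripts in biliary cells, and the nuclear long noncoding RNA Neat1 in 78.2% of 101.

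The threshold fell inside a gradient of counts. Members held a median of 5 rule-gene counts, a lowest of 4 and a highest of 21, and 109 of the 382 held exactly 4. Their rule genes took a median of 5.34% of gene counts, from 4% to 18.2%. Just outside stood 155 cells with 3 rule-gene counts that made up at least 4%. A further 1058 cells had 4 or more counts under 4%, with a median cell area of 24237 square pixels and a median of 243 gene counts. Only 15 cells met the rule but held more than 1 C1q count.

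Clu, which encodes the chaperone clusterin and was not part of the rule, took different shares of gene counts in these groups. It made up 0.295% of gene counts in cells with 0 rule-gene counts and 0.752% in cells with 3. Members took 4.44% of their counts from Clu at 4 rule-gene counts, 4.52% at 5, 3.96% at 6 or 7 and 4.69% at 8 or more. The 155 cells with 3 counts and at least 4% stood between, at 3.17%, and the cells that failed the percentage rule at 1.28%. Per cell the latter held 3.47 Clu counts, against 3.28 in members with 4 rule-gene counts, since they had a median of 243 gene counts and those members 78. At the lowest admitted rule-gene count the Clu share was thus within the range of the higher counts. Clu counts per member rose, from 3.28 at 4 rule-gene counts to 4.21 at 5, 4.53 at 6 or 7 and 8.44 at 8 or more. The share is taken over gene counts, as the 4% of the rule is, and the part of this was not tested.

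**Figure D2:**
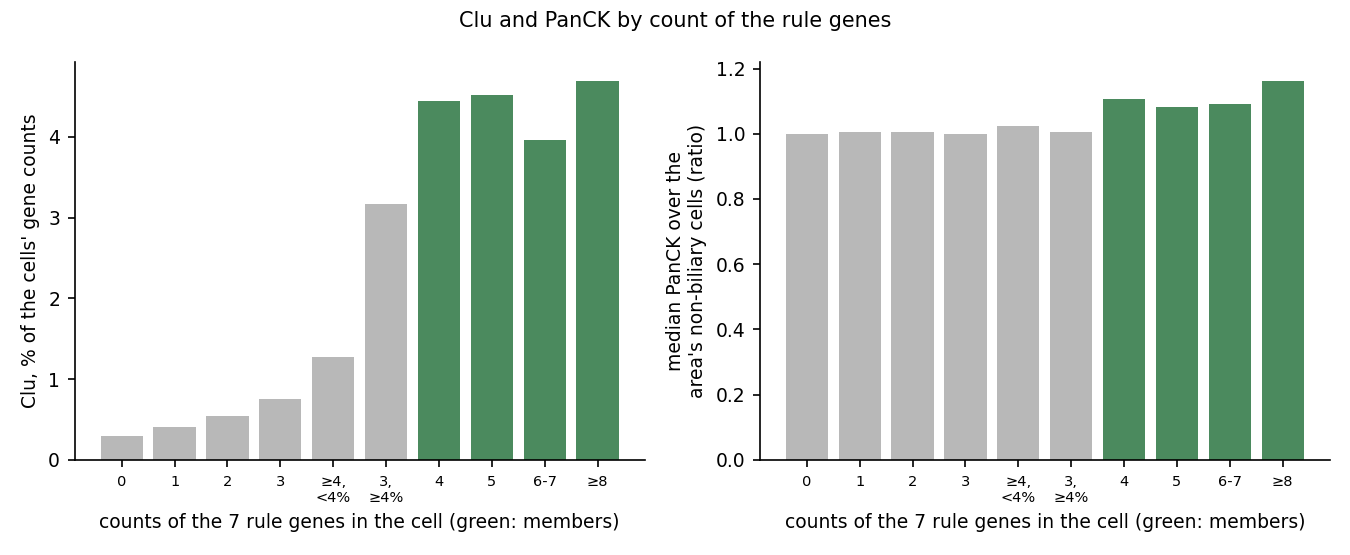
The horizontal axes sort cells with at most 1 C1q count by their counts of the 7 rule genes, with members in green and cells outside the rule in grey. Left, Clu as a percentage of summed gene counts, 4.44% at 4 counts against 3.17% just outside. Right, the median PanCK stain over that of the area's other cells.

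PanCK, an antibody stain for keratin proteins, is a measure that the rule did not use. Median PanCK intensity of biliary cells was 3027, 2902 and 3744 in the control areas and 2743, 2331 and 3352 in the HIRA KO areas, in scanner units. Other cells of the same areas had 2946, 2664 and 3394 in control and 2350, 2084 and 3263 in HIRA KO. Biliary cells were the brighter in 6 of 6 areas. The mean log2 ratio was 0.12 ± 0.07 (SD, n = 6; exact sign-flip test over the areas, two-sided, p = 0.03125, the smallest that 6 areas allow). The margin was small next to the differences between areas. By genotype, the log2 ratio averaged 0.10 ± 0.05 for control and 0.14 ± 0.09 for HIRA KO areas (exact permutation, n = 3 and 3, p = 0.6).

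Other stains and shapes set biliary cells apart as well, and are given without a test because they were not among the planned comparisons. The membrane stain with B2M was higher in biliary cells in 6 of 6 areas, by 0.49 to 1.0 on the log2 scale, and the DNA stain DAPI in 6 of 6 areas, by 0.45 to 0.90. Each stain is a mean over the cell. The log2 ratio of nuclear area was -0.36 ± 0.11 and that of cell area -1.08 ± 0.28, so nuclei differed less than cells. The part of this in the DAPI values was not tested. CD3 stain was lower in 6 of 6 areas, by a mean log2 ratio of -0.29 ± 0.10. CD45, a protein of blood cells, was higher in 3 areas and lower in 3. Biliary cells were small. Their median cell area was 6302, 7104 and 5748 square pixels in the control areas, and the HIRA KO areas had 5746, 5505 and 4527, while other cells had 15071, 16687 and 12365 in control and 8759, 10407 and 11783 in HIRA KO. The rule bears on size, since at a given rule-gene count it admits only cells with few enough gene counts to reach 4%. Cells with 4 or more rule-gene counts under 4% had a median area of 24237 square pixels, against 5689 in all members. The part of the rule in cell size was not tested.

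In cell area the 2 genotypes did not overlap. Biliary cells of control areas averaged 6385 ± 681 square pixels and those of HIRA KO areas 5259 ± 646 (n = 3 and 3), with the largest HIRA KO median 2 square pixels below the smallest control median. The exact permutation p was 0.1, the smallest possible. Relative to other cells of the same area the log2 ratio was -1.20 ± 0.08 in control and -0.97 ± 0.39 in HIRA KO (p = 0.4 by the same exact test), so the order of the groups turned on this scale. Median gene counts per biliary cell were 95.5, 112 and 93 in control and 97, 110 and 99.5 in HIRA KO, and the groups overlapped (exact permutation p = 0.7). Over all cells, counts per 1000 square pixels were 6.14 to 8.6 in control areas and 10.3 to 11.2 in HIRA KO areas. The rule asks for a share of gene counts, which bears on the gene counts of the cells it admits. The part of depth and of the rule in both comparisons was not tested.

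Beyond the rule, 46 of the 1000 targets, rule genes included, had a higher level in biliary than in other cells in all 6 areas and 125 a lower one, on the log2 scale with an offset of 50 CPM, where CPM are counts scaled to the same total in every sum of cells. Clu had 38258, 31605 and 45203 CPM in biliary cells of control areas and 47118, 42465 and 57112 in HIRA KO areas. In other cells Clu had 4558, 2213 and 3140 CPM in control and 5573, 4872 and 3539 in HIRA KO. Clu was counted in 92.1% of biliary and 27.1% of other cells.

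Several of the genes that followed Clu in the ranking by the smallest of the 6 ratios belong to simple epithelia or growth factor signalling. Gas6, a ligand of TAM receptors, had a log2 ratio of at least 1.61 in every area, with 221 counts in biliary cells. Fgfr3, a fibroblast growth factor receptor, had at least 1.19 and Fgfr2 at least 0.61. The keratin Krt18 had at least 0.80, the cell cycle gene Ccnd1 at least 0.74, the tetraspanin Cd9 at least 0.63 and the amyloid precursor gene App at least 0.62. The glycolysis targets Eno1/b and Tpi1 had at least 0.57 and 0.51. Tshz2, the small heat shock protein gene Cryab, the immunoglobulin transporter Pigr, Cd24a and Tm4sf1 completed the 15 targets, with smallest ratios between 0.43 and 0.56. Ratios of a few of these varied widely over areas, since control area 2 gave only 2 Fgfr2 and 3 Krt18 counts.

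Hepatocyte products were at the other end. Ttr had a log2 ratio between -1.64 and -0.86 over the 6 areas, and Gc, the vitamin D binding protein, between -1.55 and -0.87. The apolipoprotein gene Apoa1, the urea cycle enzyme Arg1, the selenium carrier Selenop and Apoc1 were below 0 in all 6 areas as well. The immunoglobulin light chain Igkc and Neat1 were also lower in every area. Of 16 measured hepatocyte markers, 10 were lower in all 6 areas and 1, Apoe, was higher.

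**Figure D3:**
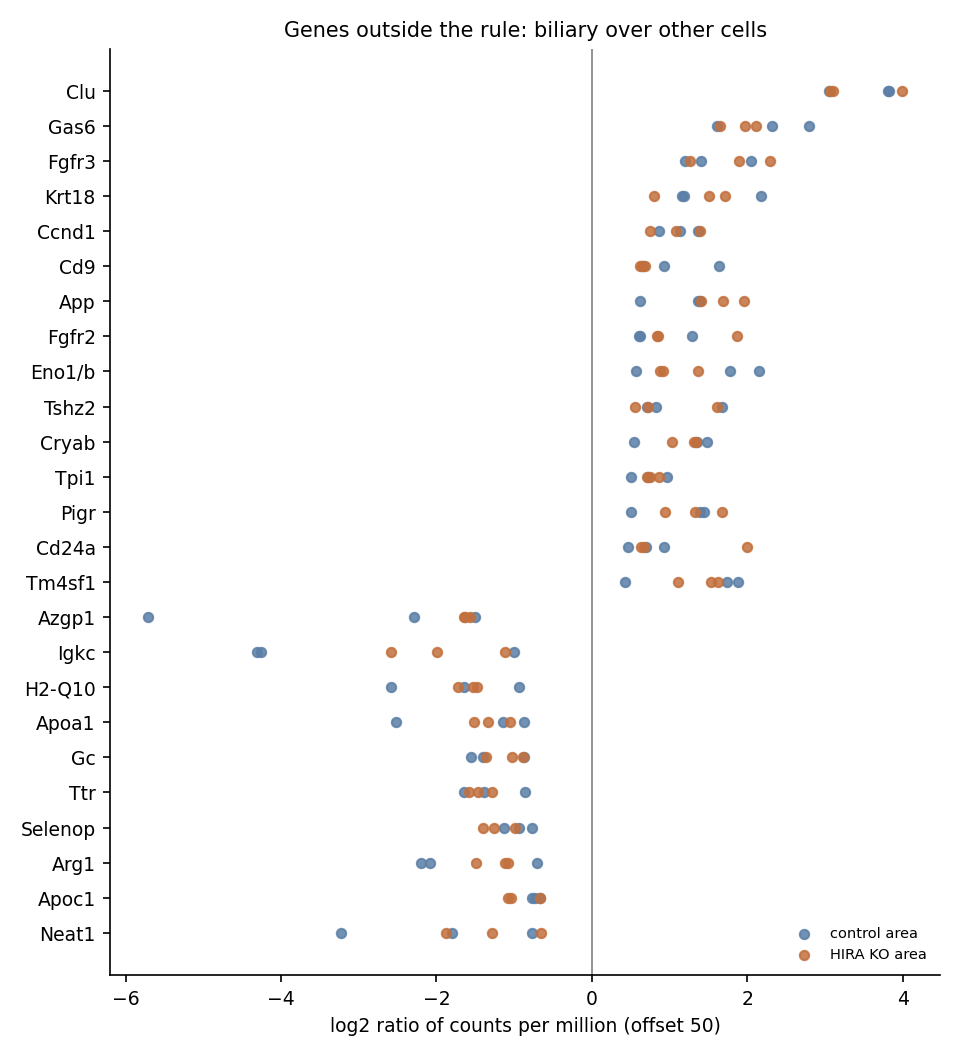
The horizontal axis is the log2 ratio of CPM (offset 50) in biliary over other cells, with 1 point per tissue area. The upper 15 targets have the largest smallest ratio, led by Clu with 3.06 or more, and the lower 10 have the lowest largest ratio. Rule genes and C1q genes are left out.

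The gene lists are set beside the counts over all targets, 46 of 1000 higher and 125 of 1000 lower in all 6 areas. Of 24 measured further biliary and epithelial genes, 8 were higher in all 6 areas (Clu, Cd24a, Krt8, Krt18, Muc1, Cd9, Pigr and Ezr) and 0 lower, with a median log2 ratio of 0.12 against -0.26 over all targets. Of 32 ligands that duct cells can secrete, Pdgfb, Pdgfd and Gdf15 were higher in all areas and Il6 and Cxcl12 lower. Among 15 measured Notch, Hippo and Wnt genes, Notch2 and the transcription factor Sox4 were higher in every area and 1 gene was lower. Of 7 MHC class I genes, H2-K1 was higher in every area and 1 other gene was lower. No proliferation gene of 12 was higher or lower in all areas. The 4 with the most counts were Tyms, Hmgb2, Pcna and Stmn1.

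Markers of other cell types were counted in biliary cells too. Kupffer cell markers made up 0.163% to 0.395% of the gene counts of biliary cells, where the rule had limited the 3 C1q genes. In other cells these markers made up 0.764% to 1.34%. Among the remaining Kupffer markers Cd5l had 7 counts in all biliary cells, Marco 18, Csf1r 18 and Cd163 21, where the highest negative probe had 18. Cd5l and Marco were lower than in other cells in all 6 areas. Cd163 and Csf1r were not, with log2 ratios from -1.60 to 1.41 and from -2.19 to 0.51. Endothelial markers had 4 of 11 genes lower in all areas and 0 higher, and B and plasma cell markers 3 of 10 lower. Other lists stood close to the 125 of 1000 lower over all targets. These were MHC class II myeloid markers, with 1 of 9 lower, and stellate and fibroblast markers, with 2 of 15 lower. T and NK cell markers, with 1 of 17 higher (Cd8a) and 2 lower, did so too. Stellate and fibroblast markers took 0.889% to 2.57% of the counts of biliary cells and 1.52% to 2.45% of those of other cells, and the biliary cells had the larger share in control area 1 and HIRA KO area 2. MHC class II markers took 0.897% to 1.82% in biliary and 0.982% to 2.43% in other cells. The part of other cell types in the values of biliary cells was not tested. Smooth muscle and neutrophil markers had no gene on one side in all 6 areas. Neither erythroid marker was higher in all 6 areas, and Hbb was lower.

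Hepatocyte markers together took 4.40%, 4.94% and 5.31% of the counts of biliary cells in control and 5.18%, 6.26% and 7.77% in HIRA KO. In the 20 nearest other cells of each biliary cell they took 5.42%, 7.2% and 8.12% in control and 8.11%, 10.2% and 11.6% in HIRA KO. All other cells of the areas had 6.44%, 8.11% and 8.05%, and 8.52%, 11.8% and 12.7%. The means in biliary cells were 4.88% ± 0.459 for control and 6.41% ± 1.3 for HIRA KO, a difference of 1.52 percentage points that had an exact permutation p of 0.2 (n = 3 and 3). The share was higher in HIRA KO than in control in each of the 3 slide rows, in biliary cells and in their neighbours, and how far transcripts of neighbouring hepatocytes contribute to biliary cells was not tested.

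Between the genotypes, no target in biliary cells passed the threshold. Of 171 targets with enough counts, rule and C1q genes aside, 0 had an adjusted p of at most 0.05 by edgeR (quasi-likelihood F test, Benjamini-Hochberg; background 0%), 10 had an unadjusted p under 0.05, and DESeq2 called 0. CPM values of the 2 genotypes did not overlap for 14 targets, 8.19% of those tested. In simulated data of the same depth the same test recovered 27.7% of 2-fold and 93.5% of 4-fold changes in targets with enough counts. Changes in targets with too few counts to be tested were not included in these shares. Changes of around 2-fold would thus mostly be missed.

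Ttr came nearest. Its counts in biliary cells were 35, 16 and 105 in control and 85, 185 and 98 in HIRA KO, which is 5015, 7901 and 11382 CPM against 9123, 16265 and 21281 CPM. The first HIRA KO area lay below the third control area, so the groups overlapped. The log2 difference was 0.93 ± 0.24 (SE), with an edgeR adjusted p of 0.0517. In other cells, where 2 of 988 targets were called by genotype (0.202%), both higher in HIRA KO, the Ttr difference was 1.27 ± 0.50, with an edgeR adjusted p of 0.549. With the slide row as a block Ttr had an edgeR adjusted p of 8.68e-07 and Clu one of 0.00023, and Ttr was also called with a minimum of 50 gene counts per cell and without control area 3 or HIRA KO area 1.

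Among targets whose areas did not overlap, 7 were higher in HIRA KO, and none of them passed the test. The metallothioneins Mt1 and Mt2, metal-binding stress proteins, had 1290, 1481 and 976 CPM each in control. In HIRA KO, Mt1 had 3005, 2550 and 1954 CPM and Mt2 2361, 2022 and 2823. Their log2 differences were 1.18 ± 0.40 and 1.03 ± 0.41 (edgeR adjusted p = 0.209 and 0.372), from 87 and 79 counts in all. The 2 genes are close paralogs whose probes may share transcripts. In other cells Mt1 differed by 0.10 ± 0.21. Gc had 2579, 1975 and 1626 CPM in control and 3327, 3341 and 5429 in HIRA KO, with a log2 difference of 0.94 ± 0.35 (edgeR adjusted p = 0.358). It differed by 0.91 ± 0.28 in other cells (edgeR adjusted p = 0.529). The oxysterol receptor Nr1h2, Apoe, App and the glucose transporter Slc2a1 made up the rest, with log2 differences from 0.32 to 0.97.

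On the lower side there were again 7 targets. The chemokine Ccl19 had 2436, 2469 and 2493 CPM in control and 1288, 1670 and 1086 in HIRA KO, from 81 counts, with a log2 difference of -0.76 ± 0.38 (edgeR adjusted p = 0.806). Map2k1, a kinase of the MAPK cascade, had -1.27 ± 0.59 (edgeR adjusted p = 0.685). The small GTPase Rac1, the actin regulator Cald1, the transcription factor Prox1, Tnfsf12 and the isomerase Ppia had log2 differences between -0.84 and -0.15.

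**Figure D4:**
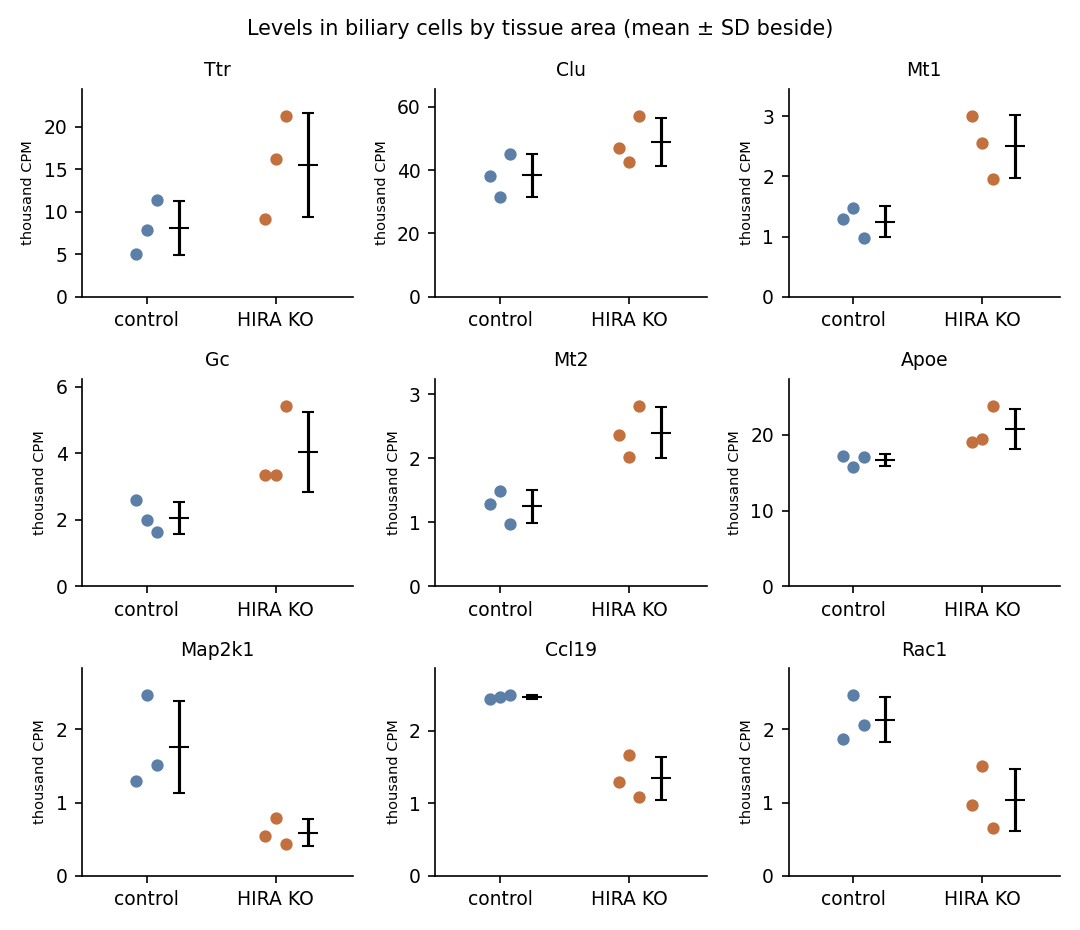
The vertical axes give level in biliary cells, in units of 1000 CPM, for 9 targets, with 1 point per tissue area and the mean ± SD beside the points. Ttr and Clu overlap between the genotypes, the other 7 do not, and none passed the edgeR test.

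The rule genes were compared between genotypes as a description, because they chose the cells. On the CPM scale the genotypes overlapped for all 7. Spp1 had 21493, 21728 and 26233 CPM in biliary cells of control areas and 24149, 26200 and 31053 in HIRA KO. Sox9 had 5158, 5926 and 6287 in control and 6118, 6682 and 9555 in HIRA KO. Cdh1 had 9457, 4444 and 8455 CPM in control and 5152, 3605 and 2389 in HIRA KO. It was counted in 64.5%, 44.4% and 57% of biliary cells in control and 44.3%, 33.7% and 21.4% in HIRA KO. By this share the groups did not overlap, by a margin that 1 cell of control area 2 could close.

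Whether the genotype difference in biliary cells departed from that in other cells was tested by an interaction over the 12 sums. Of 988 targets 0 were called by edgeR (background 0%), 35 had an unadjusted p under 0.05, and DESeq2 called 0. The lowest p-values belonged to targets with few counts. The epithelial keratin Krt4 had 4, 0 and 1 counts in biliary cells of control areas and 14, 11 and 6 in HIRA KO, with an interaction of 2.39 ± 0.68 (log2, edgeR adjusted p = 0.478). Hgf, hepatocyte growth factor, had 2, 0 and 1 counts against 12, 10 and 3, with 2.75 ± 0.80 and the same edgeR adjusted p of 0.478. The log2 ratio of biliary over other cells did not overlap between genotypes for 112 of 988 targets, 11.3%. For Ttr the interaction was -0.21 ± 0.29 (edgeR unadjusted p = 0.465).

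Under the rule used, biliary cells often had no other called cell beside them. Of the 6 nearest cells, none was biliary for 44 of 62, 18 of 18 and 37 of 86 biliary cells in control and for 54 of 79, 64 of 95 and 20 of 42 in HIRA KO. As shares these were 71%, 100% and 43% in control and 68.4%, 67.4% and 47.6% in HIRA KO, so the control areas spanned the HIRA KO areas. The means, 71.3% ± 28.5 and 61.1% ± 11.7, had an exact permutation p of 0.7 (n = 3 and 3). These shares depend on the threshold. With a stricter rule (at least 6 counts and 6%), which left 2 to 24 cells per area, they were 100%, 100% and 75% in control. Each HIRA KO area then had 100%. Still, biliary cells took 4.84%, 0% and 15.9% of the 6 nearest places in control areas and 5.7%, 6.14% and 10.7% in HIRA KO areas. Of all cells they made up 0.758%, 0.264% and 1.22% in control and 0.776%, 0.936% and 0.559% in HIRA KO.

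Joining each biliary cell to any biliary cell among its 6 nearest gave 62 groups of 2 or more cells and 228 single cells. The largest group had 8 cells and lay in control area 3, where 24 of 86 cells were in groups of 4 or more. In control area 1 the largest group had 3 cells and in each HIRA KO area 4. Single and grouped cells were set side by side for Clu, Krt8, Krt18 and hepatocyte markers, without a test. Clu took 4.44% of gene counts in either kind and was counted in 88.2% of single and 98.1% of grouped cells. Krt8 and Krt18 took 0.623% in single and 0.766% in grouped cells, and hepatocyte markers 5.92% and 5.19%. These values pool the cells of all areas. The share of single cells ran from 40.7% in control area 3 to 100% in control area 2, so grouping and area were not separated. Single cells had a median of 5 rule-gene counts and grouped cells 6.

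The surroundings of biliary cells were read from the 20 nearest other cells of each, 299 to 1394 cells per area. Their transcripts were not used by the rule except in leaving out the cells that met it. By marker list, stellate and fibroblast markers were higher around biliary cells than over all other cells of the area in 6 of 6 areas, by a mean log2 ratio of 0.22 ± 0.10. Kupffer cell markers were lower in 6 of 6 areas, by -0.47 ± 0.29. Each had an exact sign-flip p of 0.03125 over 6 areas, which rose to 0.156 after adjustment over 10 lists, so neither passed. The Kupffer list held C1qa, C1qb and C1qc, so its value rests partly on those genes. The rule limited them in biliary cells and set no limit on them in other cells. Smooth muscle markers (0.27 ± 0.28) and MHC class II myeloid markers (0.23 ± 0.25) were higher in 5 of 6 areas, and hepatocyte and endothelial markers were lower in 5 of 6 (-0.14 ± 0.10 and -0.06 ± 0.06).

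Single targets resolved the surroundings further. In an edgeR test of near against farther cells with the area as a block, added after the list values had been seen, 53 of 988 targets other than rule and C1q genes were called, a background of 5.36%, with 38 higher (3.85%) and 15 lower near biliary cells (1.52%). Of the 38, 28 were higher in all 6 areas, and of the 15, 12 were lower in all 6. Leaving out 1 area gave 24 to 49 calls, with 24 without control area 1, 35 without control area 2 and 27 without HIRA KO area 3. The 20 targets plotted, the 10 with the largest difference in each direction among those alike in all 6 areas, were chosen after their values were seen. More cells of a type and more RNA per cell of that type cannot be told apart in such sums.

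Clu had the largest difference on the higher side, and genes of connective tissue were among those that followed. Gsn, the actin-severing protein gelsolin, had 4352, 1634 and 3232 CPM near biliary cells in control areas and 2659, 2606 and 2390 in HIRA KO, against 1486, 1258 and 1514, and 1810, 1594 and 1282, farther away. Its log2 difference was 0.90 ± 0.11 (edgeR adjusted p = 4.61e-05). Mgp, a matrix protein that inhibits calcification, differed by 0.72 ± 0.10, the fibrillar collagen Col3a1 by 0.64 ± 0.09, dermatopontin (Dpt) by 0.63 ± 0.10, Col1a1 by 0.50 ± 0.08 and the proteoglycan Bgn by 0.46 ± 0.08, all with an edgeR adjusted p of at most 0.00129. Of 15 stellate and fibroblast markers 6 were called higher and 0 lower, and 14 were positive. Of 5 smooth muscle markers Acta2 and Tagln were called, though these were higher in only 5 and 4 areas. The MHC class II genes H2-Aa and H2-Ab1 were called higher and were above 0 in 5 of 6 areas.

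Duct genes also rose in these cells that the rule had not called biliary. Clu differed by 1.67 ± 0.15 (edgeR adjusted p = 9.84e-07), with 13974, 7404 and 10915 CPM near biliary cells in control areas and 10416, 7643 and 11506 in HIRA KO. Of 23 further biliary and epithelial genes 7 were called higher (Clu, Cd9, Cd24a, Krt8, Ezr, Muc1 and S100a6) and 1, Slpi, lower. Notch2, its ligand Jag1, Ctnnb1 and Sox4 were called higher, 4 of 15 in their list. Gas6 (0.71 ± 0.08), Fgfr3, Tm4sf1, App and Igfbp3 rose too. Between 4.58% and 8.03% of near cells held 3 rule-gene counts, against 2.48% to 5.45% of farther cells. In every area near cells were smaller, with median areas of 7203 to 12032 square pixels against 8902 to 16859.5 farther away. Their median gene counts were also lower in every area, 81.5 to 113 against 89 to 155. How far transcripts of biliary cells contribute to the near cells was not tested.

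Every cell with a count of a rule gene, near or far, was then left out. About every second near cell remained, 138 to 731 per area, and 10 targets were called, all 10 of them among the 53, again with rule and C1q genes set aside. Gsn (0.92), Mgp (0.77), Acta2 (0.71), Dpt (0.66), Col3a1 (0.65) and Col1a1 (0.50) were called with differences at or above those over all near cells. Igfbp3 stayed at 0.54. Clu fell to a difference of 0.81 and Gas6 to 0.42, both still called. Krt8 (0.14), Fgfr3 (0.13), Ezr (0.04), Sox4 (0.01) and Alcam (-0.05) had small differences and were not called. Others that were no longer called had larger differences, among them Tm4sf1 (0.42), Muc1 (0.40), Bgn (0.38, edgeR adjusted p = 0.0505), S100a6 (0.34), Jag1 (0.25), Cd9 (0.25) and Notch2 (0.24).

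The 15 lower targets held 1 of 4 Kupffer cell markers tested, 1 of 11 endothelial markers and 2 of 16 hepatocyte markers. Cd5l, a Kupffer cell product, had 1006, 644 and 1049 CPM near biliary cells in control and 919, 980 and 1105 in HIRA KO, against 1854, 1346 and 2657, and 1352, 1329 and 2717, farther away. Its log2 difference was -0.88 ± 0.10 (edgeR adjusted p = 2.44e-05), and it was also called without cells that held rule genes (-0.82). C1qb and C1qa, which the rule used, had -0.46 and -0.43. Kdr, the VEGF receptor of sinusoidal endothelium, differed by -0.41 ± 0.08, the scavenger receptor Mrc1 by -0.32 ± 0.08 and the iron exporter Slc40a1 by -0.27 ± 0.08. Glul, the glutamine synthetase of hepatocytes around central veins, differed by -0.70 ± 0.14 (edgeR adjusted p = 0.00346) and was lower in 5 of 6 areas, with HIRA KO area 2 at about 0. Apoc1, Ppara, Ldha, the acute-phase target Saa1/2, Clec2d, Irf4, Col12a1, H2-Q10 and Gpx1 were also lower near biliary cells.

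**Figure D5:**
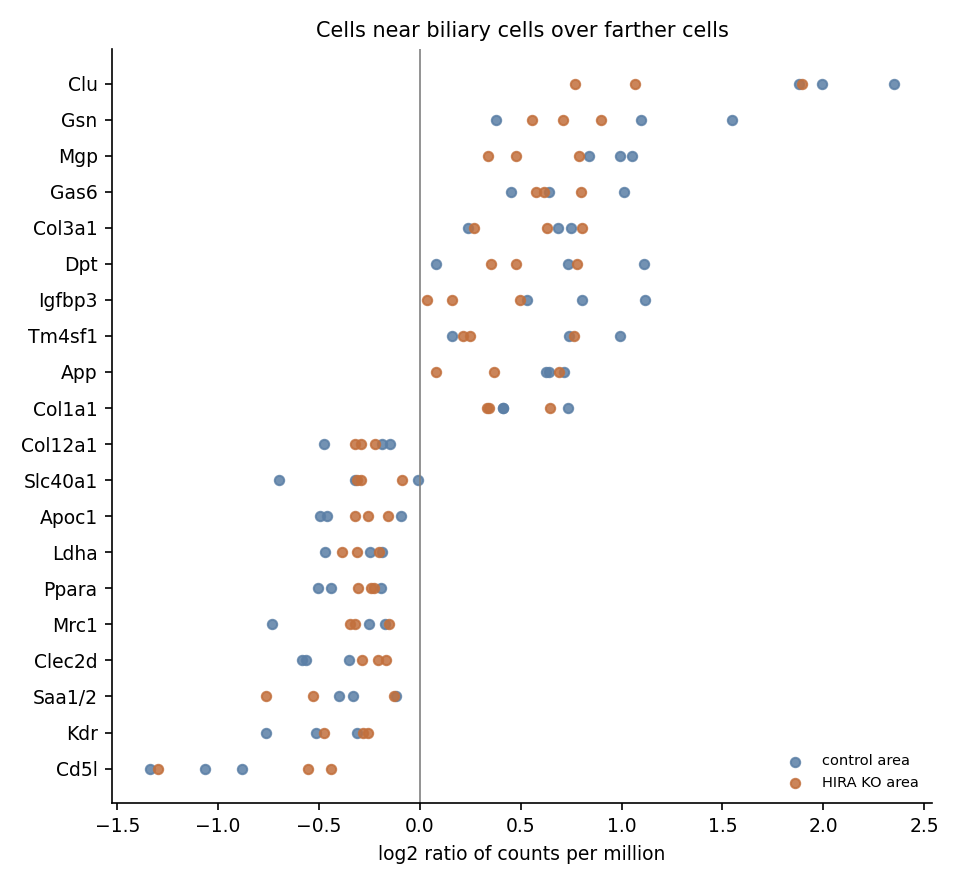
The horizontal axis is the log2 ratio of CPM in the 20 nearest other cells of biliary cells over the farther cells of the area, with 1 point per tissue area. Targets called by edgeR and alike in all 6 areas are shown, from Clu (fitted difference 1.67) down to Cd5l (-0.88).

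Genotype left no called difference in the surroundings. Of 988 targets 0 were called for an interaction of genotype and nearness (edgeR, background 0%), 53 had an unadjusted p under 0.05, and DESeq2 called 0. The near-against-far difference of Clu was smaller in HIRA KO by 0.88 ± 0.22 on the log2 scale (edgeR adjusted p = 0.295), and that of Krt18 by 0.82 ± 0.21, with the same edgeR adjusted p of 0.295. That of Clu passed the threshold when HIRA KO area 3 was left out, and that of Krt18 without control area 2. Among the 10 marker lists, endothelial markers took 1.03%, 1.03% and 1.11% of the counts near biliary cells in control and 0.926%, 0.946% and 0.932% in HIRA KO, without overlap (exact permutation, p = 0.1, 0.4 after adjustment over the lists). Relative to the whole area these values overlapped. Neutrophil markers relative to the area did not overlap, at -0.11 ± 0.03 in control and 0.08 ± 0.05 for HIRA KO on the log2 scale (exact permutation p = 0.1, adjusted 1.0). Stellate and fibroblast markers around biliary cells took 2.3% ± 0.536 for control and 2.43% ± 0.186 for HIRA KO areas (exact permutation p = 1.0).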

How the data were processed

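The deposited values are counts of transcripts for each gene target in each segmented cell, not normalized, that the authors obtained with the CosMx platform, and per the file headers mean stain intensity, cell area and position per cell. Decoding and segmentation software versions are not given in the sources used here. Cells with under 20 gene counts were left out. Fields of view were grouped into 6 tissue areas by genotype label and position, and neighbours were found within a field of view. The slide held the 2 genotypes in separate columns, so column and genotype cannot be told apart, and each of 3 slide rows held 1 area of each.

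Counts were summed per area over biliary or other cells and tested with edgeR 4.0.16 in R 4.3.3 (TMM, filterByExpr, quasi-likelihood F test, Benjamini-Hochberg at 0.05), with DESeq2 1.42.0 as an alternative. Standard errors are the log2 difference divided by the root of F. Single values were tested by exact permutation of areas. The test was checked on simulated counts with 200 changed targets, and recovery was taken over those with enough counts to be tested. 15.9% of its calls were false at 4-fold changes and 5.04% at 2-fold. Gene positions are from GENCODE vM21. The deposited assignment of transcripts to cells and compartments was taken as given, and the outline coordinates were not read.

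Targets named are those with the lowest p, up to 10 a direction, whose areas did not overlap and whose counts exceeded the highest negative probe, the 7 rule genes, the 15 targets with the highest level in biliary over other cells in all areas, and up to 4 members per list with the most counts. The cells, lists and tests were chosen with earlier results of these data known. Alternatives were a stricter rule (at least 6 counts and 6%), a rule without Anxa4 and Cdh1, a minimum of 50 counts, large cells (over 5 times the geometric mean area) left out, thinning to 50 counts, 10 nearest cells, other normalization or filters, the slide row as a block and each area left out.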

Additional observations from a re-analysis of the deposited data

Results flagged for a closer look

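Outliers were looked for among the fields of view of each of the 6 tissue areas. In HIRA KO area 1 biliary cells made up 1.59% of the cells in the field of view richest in them, 21 of 1320 cells, against 0.923% in the next, and that field lay apart from the other 7 fields by more than the 95% limit for 8 values. Chance marks about 1 in 20 such groups. No target passed a test of a difference between genotypes in biliary against other cells.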

How the results depend on the processing

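Values here are HIRA KO minus control unless said otherwise. With the stricter rule the difference in the share of biliary cells became -0.042 percentage points, that in cells without a biliary neighbour 8.33 points and that in T and NK cell markers near biliary cells 0.083 points. Over the area, B and plasma cell markers became 0.12 and MHC class II markers 0.63 (log2), the ratio of B and plasma cell markers around biliary cells 0.16, and PanCK in biliary over other cells 0.15 without passing. With a minimum of 50 counts the share became -0.028, gene counts per biliary cell -0.50, erythroid markers near biliary cells -0.0015, and 1 target (Ttr) was called in biliary cells. Thinning gave -0.017 for the share and 9.36 for cells without a biliary neighbour. The slide row as a block gave 2 called targets (Ttr and Clu), and 10 targets around biliary cells were called without cells holding rule genes.

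Leaving out 1 area at a time moved the share from -0.23 to 0.25, cells without a biliary neighbour from -24.4 to 4.12, PanCK by genotype from -0.0012 to 0.091, PanCK in biliary over other cells from 0.10 to 0.14 (5 areas allow no p under 0.0625) and gene counts from -1.92 to 7.92. Near biliary cells, stellate and fibroblast markers ran from -0.17 to 0.31, T and NK cell markers from -0.063 to 0.012 and erythroid markers from -0.0022 to 0.013. Relative to the area, hepatocyte markers ran from -0.060 to 0.071, Kupffer cell markers from -0.0050 to 0.36, endothelial markers from -0.00098 to 0.062, T and NK cell markers from -0.011 to 0.070, B and plasma cell markers from -0.47 to 0.23, MHC class II markers from -0.12 to 0.16 and erythroid markers from -0.030 to 0.27. The ratio of neutrophil markers around biliary cells ran from -0.046 to 0.012. Called targets ran from 0 to 1 in biliary cells, where Birc3 was called lower without control area 2, from 24 (without control area 1) to 49 around biliary cells, with 35 without control area 2 and 27 without HIRA KO area 3, and from 0 to 2 by genotype around them (Clu, Krt18, Igha and Igfbp3). The causes were not tested. With the stricter rule 4 targets could be tested in biliary cells. Keeping biliary cells with a biliary neighbour left control area 2 without any, so 2 control areas remained. The labels' replicate numbers pair no samples. The slide row, which holds 1 area of each genotype, was the block that could be fitted, and for single values its 3 rows allow no p under 0.25.

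Biliary cells were few, 18 to 95 per area, and counts per target were low, so differences under 4-fold were often not detectable at this depth. Areas are not known to be separate mice.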
